A study of Arabidopsis thaliana with 36 samples.

Results

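Rosettes of Arabidopsis thaliana Col-0 that had received 10 cGy of gamma rays were compared with mock rosettes at 24 h after exposure, with 3 libraries in each group. All genes with at least 1 CPM (counts per 1000000 mapped reads) in at least 3 of the 36 libraries of the series were described, which gave 18875 of the 33977 genes in the table, measured here in 6 of the 36 libraries. The irradiated plants had been placed before a caesium source (137Cs) at 1.4 cGy/s for 7 s, and the mock plants had not been exposed. Plants of both groups were 4 weeks old, of the wild-type accession Columbia-0 and grown in short days of 8 h of light and 16 h of dark at 22 °C. Whole rosettes were taken, and poly(A) RNA was turned into directional libraries. The other groups of the series were mock, 10 cGy and 100 cGy at 1, 3 and 72 h and 100 cGy at 24 h, with 3 libraries each. The labels do not say that replicates were separate plants, so the p-values below measure the spread between libraries, which may be technical.

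Ionizing radiation breaks DNA and forms reactive oxygen species. In plants the strand breaks are signalled through the kinases ATM and ATR and the transcription factor SOG1, which switches on repair genes and cell-cycle inhibitors within hours. A rosette also carries light-controlled programmes that work by other routes. The bZIP factor HY5 and its partner HYH switch on early light-induced proteins, which bind chlorophyll during light stress, and the enzymes that make flavonols, which absorb ultraviolet light. The WD40 proteins RUP1 and RUP2 are targets of the same ultraviolet-B pathway and repress its receptor UVR8. Zinc supply is sensed by the factors bZIP19 and bZIP23, which bind a short palindrome, the zinc deficiency response element, in front of zinc transporter genes of the ZIP family.

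The depth of the 6 libraries, in units of 1000000 reads, was 26.7 to 32.8. It was inferred from the most frequent CPM value above 0, taken as 1 read. A count of 3 reads then corresponded to 0.0914 to 0.112 CPM. All 7 rosette leaf markers reached 1 CPM, with sums of 57915 to 65553 CPM in mock and of 54425 to 59162 CPM after 10 cGy. Of the 7 root markers 3 reached 1 CPM, and 0 of the 6 flower and 0 of the 3 seed markers did. The summed root markers ranged from 150.1 to 185 CPM in mock and from 145 to 209 CPM after 10 cGy.

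At 24 h after 10 cGy, light-stress and flavonol transcripts were lower than in mock and zinc-uptake transcripts were higher. The early light-induced proteins ELIP1 and ELIP2 stood at 0.574 and 0.444 times their mock means. The zinc transporter genes ZIP4, ZIP5 and IRT3 stood at 2.09, 2.09 and 1.91 times theirs. None of 21 tested DNA damage response genes passed the test, beside 3.29% of all tested genes, and 4 more were too low to be tested. In such bulk samples fewer cells of a type and less RNA per cell cannot be told apart.

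By limma's moderated test on log2(CPM + 0.5), fitted to all 36 libraries with Benjamini-Hochberg adjustment, 621 genes (3.29% of those tested) had an adjusted p under 0.05. Of these, 494 (2.62%) were higher and 127 (0.673%) lower after 10 cGy. Most changes were small: the median log2 fold change was 0.36 among the rises and -0.32 among the falls, and 9 rises and 1 fall reached 1 on the log2 scale. The 3 irradiated libraries lay wholly above or below the 3 mock libraries in 586 of the 621 genes, beside 3723 (19.7%) of all tested genes, 2890 (15.3%) above and 833 (4.41%) below. The calls leaned on the spread shared by all 36 libraries: fitted to the 6 libraries alone, limma called 0 genes (smallest adjusted p 0.283), with 2427 at an unadjusted p under 0.05. Each SE given below also comes from that shared spread and not from the 6 libraries alone. The variance within the 2 groups of 24 h was 1.26 times the shared one at the median of the called genes. Among all tested genes this ratio was 1.03. The excess of rises depended on scaling. When CPM were rescaled by median-ratio size factors, which moved the median log2 change of all genes from 0.069 to -0.0065, 509 genes (2.7%) were called, 173 higher (0.917%) and 336 lower (1.78%). All 173 of these rises and 126 of these falls were also called, with the same direction, on CPM as deposited. The calls of 87 genes, 68 higher and 19 lower, held when any 1 of the 6 libraries was left out, and all 87 were also called after rescaling.

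**Figure D1:**
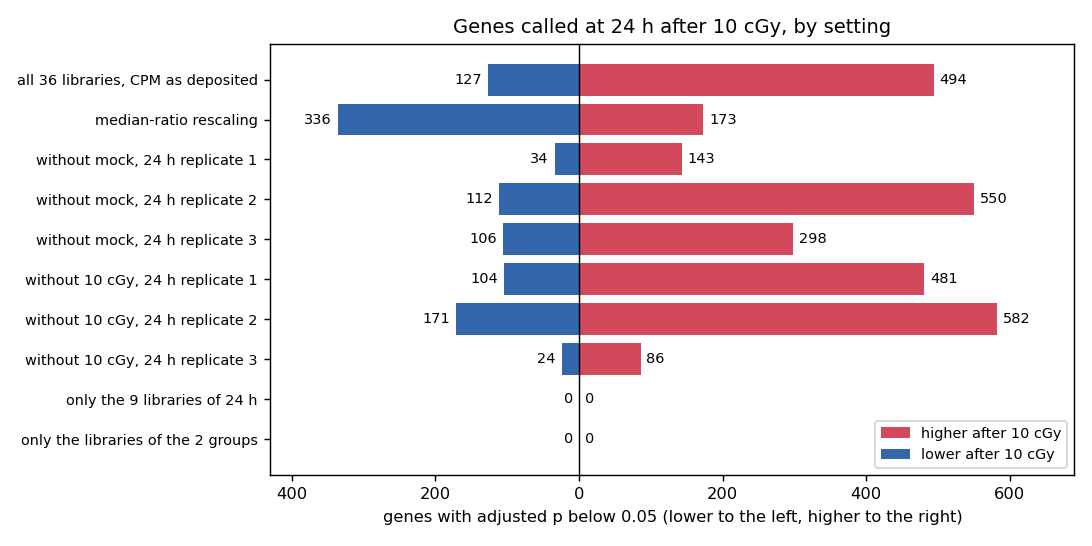
Numbers of genes with an adjusted p under 0.05 at 24 h after 10 cGy, higher to the right in red and lower to the left in blue, for the fit to all 36 libraries and for other settings on separate rows. The fit to all libraries called 494 higher and 127 lower; leaving out 10 cGy replicate 3 left 86 and 24, and the fits to only the 6 or 9 libraries of 24 h called 0.

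The 3 irradiated libraries did not move equally far. Replicate 2 was the irradiated library nearest to mock in 296 of the 494 rises and 86 of the 127 falls, and replicate 3 in 39 and 8. Without replicate 3 of the 10 cGy group 110 genes were called, without replicate 2 there were 753, and without replicate 1 of the mock group 177. Replicate 3 also stood apart in transcripts that were not called. DFR, an enzyme of the late anthocyanin pathway, had 48.3, 61.6 and 194 CPM after 10 cGy against 27.2, 67.5 and 40.2 CPM in mock. The senescence protease gene SAG12 had 0, 0.549 and 5.88 CPM after 10 cGy and at most 0.0328 CPM in mock. Whether this library's state contributed to the calls was not tested beyond leaving it out.

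The first group of falls was that of light stress and ultraviolet-B signalling. Of 9 tested members of the high light list, 6 fell, 0 rose and 3 did not pass, with a median log2 change of -0.48 beside 0.07 over all tested genes. The same 6 fell after rescaling. ELIP1, ELIP2 and PHR1 (a photolyase, below) are shown here by the bases in front of their annotated starts, since HY5 and related factors are known to bind the G-box. TT4 (chalcone synthase) is shown as an example from the flavonoid pathway. ELIP1 and ELIP2 are among the largest falls, while PHR1 and TT4 were picked for printing after the called genes were known. Each run gives the 250 bases before the start in the RefSeq annotation of TAIR10.1, 5′ to 3′ on the gene's strand, with the G-box CACGTG and its core ACGT in capitals.
ELIP1 (chr3:8085670-8085919, minus strand): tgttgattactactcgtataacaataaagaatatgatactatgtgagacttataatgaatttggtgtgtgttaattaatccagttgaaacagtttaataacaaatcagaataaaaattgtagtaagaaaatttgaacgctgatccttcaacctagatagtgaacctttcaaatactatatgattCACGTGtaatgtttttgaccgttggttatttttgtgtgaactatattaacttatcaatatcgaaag
ELIP2 (chr4:8417992-8418241, plus strand): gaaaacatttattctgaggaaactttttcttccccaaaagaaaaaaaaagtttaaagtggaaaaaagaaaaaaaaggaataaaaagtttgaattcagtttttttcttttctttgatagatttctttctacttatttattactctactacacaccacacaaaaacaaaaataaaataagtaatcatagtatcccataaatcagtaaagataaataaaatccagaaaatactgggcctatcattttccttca
PHR1 (chr1:4209000-4209249, minus strand): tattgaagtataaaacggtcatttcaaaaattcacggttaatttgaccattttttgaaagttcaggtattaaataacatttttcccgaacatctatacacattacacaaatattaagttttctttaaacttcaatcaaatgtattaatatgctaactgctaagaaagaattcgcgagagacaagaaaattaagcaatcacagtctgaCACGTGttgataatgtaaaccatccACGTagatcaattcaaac
TT4 (chr5:4488226-4488475, plus strand): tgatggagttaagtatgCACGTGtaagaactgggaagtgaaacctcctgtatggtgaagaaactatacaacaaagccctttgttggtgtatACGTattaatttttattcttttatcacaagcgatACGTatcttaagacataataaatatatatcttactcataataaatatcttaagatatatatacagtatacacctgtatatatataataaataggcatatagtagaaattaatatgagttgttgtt

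A G-box began 66 bases before the start of ELIP1, 43 before that of PHR1 and 233 before that of TT4, and the window of ELIP2 held neither a G-box nor an ACGT core. Searched on both strands, a G-box stood in 7.48% of the 18801 promoter windows of tested genes that matched the reference, in 9.72% of those of the 494 rises and in 11.8% of those of the 127 falls. It stood in 3 of the 12 windows of the high light and flavonoid genes that fell, those of ELIP1, TT4 and F3H. PHR1 is on the repair list and not among these 12. The windows of HY5, HYH, RUP1, RUP2, FLS1 and UGT78D2, which are not printed, held no G-box. The ACGT core, which every G-box contains, was in 44.2% of all windows, 49.6% of those of the falls and 8 of these 12. A match describes these letters and is not a binding site shown by the data.

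ELIP1 had 90.08, 85.4 and 82.9 CPM in the mock libraries and 38.7, 64.3 and 45.3 CPM after 10 cGy. ELIP2 had 30.2, 22.2 and 26.5 CPM in mock and 8.85, 17.3 and 8.91 CPM after 10 cGy. For both genes all irradiated libraries were below all mock libraries, with replicate 2 the nearest to mock. The log2 change was -0.83 ± 0.15 (SE, adjusted p = 0.00282) for ELIP1 and -1.20 ± 0.25 (adjusted p = 0.00823) for ELIP2, whose adjusted p was 0.0853 without 10 cGy replicate 3.

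HY5 had 47.6, 45.1 and 43.4 CPM in mock and 29.3, 39.9 and 28.9 CPM after 10 cGy, without overlap. Its log2 change was -0.48 ± 0.11 (adjusted p = 0.0115). HYH, its close relative, fell by 0.42 (adjusted p = 0.0323), with 65.5, 94.6 and 68.3 CPM after 10 cGy against 96.2 CPM in the lowest mock library. RUP2 had 70.1, 62.5 and 73.4 CPM in mock and 42.1, 53.3 and 44.8 CPM after irradiation. The groups were apart, with a log2 change of -0.55 ± 0.11 (adjusted p = 0.00315), and RUP1 changed alike, by -0.53 ± 0.11 (adjusted p = 0.00652). ELIP1 and RUP2 kept their calls without any 1 library. The list's members without a call were BBX24 (0.09) and BBX25 (-0.02), B-box proteins that bind HY5, and SEP2 (-0.19).

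**Figure D2:**
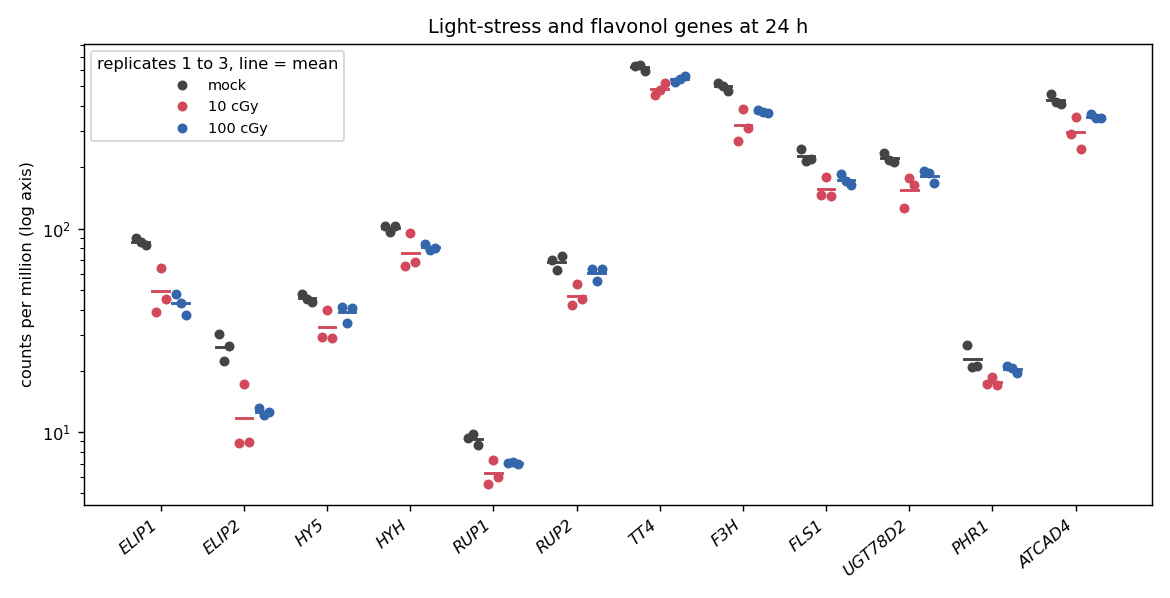
CPM on a log axis for 12 light-stress, flavonol, photolyase and lignin genes at 24 h, with the 3 mock (grey), 10 cGy (red) and 100 cGy (blue) libraries as points in the order of replicates 1 to 3 and their mean as a line. All 10 cGy points lie below all mock points in each gene, and the second red point is the highest of its group in 11 of the 12.

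Flavonol synthesis followed. Of 18 flavonoid genes tested, 6 fell, 0 rose and 12 did not pass, with a median log2 change of -0.31; 8 fell after rescaling, and 2 to 8 when 1 library was left out. F3H, the flavanone 3-hydroxylase, had 517, 504 and 475 CPM in mock and 270, 387 and 311 CPM after 10 cGy, with a log2 change of -0.64 ± 0.14 (adjusted p = 0.00815). FLS1, the flavonol synthase, had 247, 214 and 219 CPM in mock and 147, 178 and 144 CPM after 10 cGy, with a change of -0.54 ± 0.09 (adjusted p = 0.00133). Both were apart from mock in every library, and the call of FLS1 held without any 1 library. UGT78D2, which adds glucose to flavonols and anthocyanidins, fell by 0.53 (adjusted p = 0.00879). TT4, the chalcone synthase that opens the pathway, fell by 0.36 (adjusted p = 0.0439), and so did 4CL3 (-0.38) and the phenylalanine ammonia-lyase PAL2 (-0.34). MYB111, an activator of flavonol genes, had a log2 change of -0.65 with an adjusted p of 0.0648. The 6 positive members were DFR, LDOX, TT7, TT8, TT19 and PAP1, at 0.31 to 0.98. In each of them the highest of the 6 libraries was 10 cGy replicate 3. F3H overlaps a gene on the other strand, and the sources used here do not say whether counting used strand.

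MYBL2, a repressor of anthocyanin genes, moved the other way, from 9.02, 14.1 and 9.13 CPM in mock to 19.3, 17.3 and 28.9 CPM after 10 cGy. The groups did not overlap, and the log2 change of 0.99 ± 0.15 (adjusted p = 0.000579) held without any 1 library. ATCAD4, a cinnamyl alcohol dehydrogenase of lignin synthesis, fell from 456, 418 and 409 CPM to 290, 355 and 246 CPM. Its log2 change was -0.54 ± 0.09 (adjusted p = 0.00103).

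Of the listed repair and damage-signalling genes 1 passed. PHR1, the photolyase that reverses ultraviolet-induced pyrimidine dimers with blue light, had 26.8, 20.9 and 21.1 CPM in mock and 17.2, 18.6 and 17.1 CPM after 10 cGy. The 3 irradiated libraries were below mock, with a log2 change of -0.36 ± 0.08 (adjusted p = 0.0156), though a gene on the other strand overlaps it. It was the only call among 26 repair and damage-signalling genes, whose median log2 change was 0.05. This is near the share of all tested genes, of which 3.29% were called. The list held 0 calls without 10 cGy replicate 3 and 0 without mock replicate 1.

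The tested genes that answer strand breaks were not called. Of 25 DNA damage response genes listed, 4 (SMR4, SMR5, NAC044 and NAC085) did not pass the filter on low values. Of the 21 tested, 0 rose and 0 fell, with a median log2 change of -0.01 and a range of -0.28 to 0.26. There were 9 positive and 12 negative values. With 3.29% of all tested genes called, 0 calls in a list of 21 is not far from that share. Of all tested genes 68.3% had a positive value on CPM as deposited and 48.4% after rescaling. BRCA1, of homologous recombination, had 5.79, 5.12 and 6.14 CPM in mock and 6.67, 4.94 and 4.87 CPM after 10 cGy. The poly(ADP-ribose) polymerase gene PARP2 had 4.72, 5.05 and 4.55 CPM in mock and 4.36, 5.07 and 4.23 CPM after 10 cGy, and TSO2, a ribonucleotide reductase subunit, had 57.8, 66.2 and 58.9 CPM against 57.7, 54.5 and 54.6 CPM. The groups overlapped for BRCA1 and PARP2, and for TSO2 the irradiated libraries ended just under mock (log2 change -0.13, adjusted p = 0.443).

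The log2 change was 0.08 for XRI1, the X-ray induced transcript, 0.14 for SOG1, 0.13 for GMI1 and -0.28 for the mitotic cyclin gene CYCB1;1, with overlapping groups and adjusted p of 0.353 to 0.721. GMI1 shares near-identical stretches with another gene, so its level is uncertain. SMR7, a cyclin-dependent kinase inhibitor, ranged from 0.0969 to 0.262 CPM in mock and from 0.164 to 0.244 CPM after 10 cGy, a level at which small changes were not detectable.

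The zinc genes rose. Of 12 genes on the zinc list, 8 passed the filter on low values, 4 rose and 0 fell, all 8 changes were positive (7 after rescaling) and the median log2 change was 0.68. The 4 risen genes are ZIP4, ZIP5, ZIP9 and IRT3, transporters of the ZIP family that bring zinc into cells and are switched on when zinc is short. IRT3 and ZIP9 are shown here by the 250 bases before their starts, with the core of the zinc deficiency response element, TGTCGACA, in capitals. Both runs were read from TAIR10.1 at the RefSeq start, 5′ to 3′ on the gene's strand.
IRT3 (chr1:22447300-22447549, minus strand): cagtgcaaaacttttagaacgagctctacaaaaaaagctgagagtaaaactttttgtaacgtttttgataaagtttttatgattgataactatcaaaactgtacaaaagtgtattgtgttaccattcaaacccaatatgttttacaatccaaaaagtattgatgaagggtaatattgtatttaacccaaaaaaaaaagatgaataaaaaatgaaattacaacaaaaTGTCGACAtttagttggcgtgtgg
ZIP9 (chr4:15934763-15935012, minus strand): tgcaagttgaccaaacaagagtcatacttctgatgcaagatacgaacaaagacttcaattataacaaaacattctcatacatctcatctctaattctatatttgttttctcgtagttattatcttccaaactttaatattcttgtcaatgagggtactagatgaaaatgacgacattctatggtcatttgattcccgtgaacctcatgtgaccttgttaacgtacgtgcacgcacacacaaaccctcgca

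The palindrome stood 24 bases before the start of IRT3 and 39 bases before that of ZIP4, and it was not in the windows of ZIP5 and ZIP9. It was rare in general: 52 of the 18801 windows (0.277%) held it, beside 3 of the windows of the 494 rises and 0 of those of the 127 falls. The search for this motif and for the ACGT core was added after the risen genes were known.

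ZIP4 had 6.46, 8.95 and 7.17 CPM in mock and 17.1, 10.4 and 19.6 CPM after 10 cGy. ZIP5 had 3.17, 3.41 and 2.98 CPM in mock and 7.29, 5.2 and 7.49 CPM after 10 cGy. All 3 irradiated libraries of both genes were above mock, with replicate 2 the lowest. The log2 change was 0.98 ± 0.18 (adjusted p = 0.0025) for ZIP4 and 0.94 ± 0.16 (adjusted p = 0.00119) for ZIP5, and both calls held without any 1 library.

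IRT3 had 35.9, 37.1 and 36 CPM in mock and 90.5, 43.3 and 73.9 CPM after 10 cGy, a log2 change of 0.86 ± 0.17 (adjusted p = 0.00596, and 0.0596 without replicate 3). ZIP9 had 0.152, 0.0656 and 0.107 CPM in mock, near the value of 3 reads and so uncertain, and 1.74, 0.355 and 3.86 CPM after 10 cGy. Its groups did not overlap, but its log2 change of 1.74 ± 0.49 was close to the threshold (adjusted p = 0.0433, just under 0.05 after rescaling and 0.33 without replicate 3). The other members did not pass: HMA2, a zinc pump of the vasculature, had a log2 change of 0.50 (adjusted p = 0.188), ZIP1 of 0.19, and the regulators BZIP23 and BZIP19 of 0.20 and 0.02. All 4 rises were also called after rescaling, and 2 to 5 members of the list were called when 1 library was left out.

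The 3 zinc transporter genes ZIP4, ZIP5 and IRT3 also rose after 10 cGy at the other hours, which have their own irradiated and mock libraries. ZIP5 had log2 changes of 1.30, 1.83 and 1.41 at 1, 3 and 72 h, ZIP4 of 0.92, 1.59 and 1.55, and IRT3 of 1.67, 1.18 and 0.95, with adjusted p of 2.5e-08 to 0.0017 for IRT3, 7.9e-06 to 0.00028 for ZIP4 and 3.7e-08 to 1.4e-05 for ZIP5. ZIP9 had 1.48, 1.45 and 1.43, called at 1 h but not at 3 h (adjusted p = 0.13) or 72 h (adjusted p = 0.061). In each of the 4 genes and at each of the 4 hours, all 10 cGy libraries were above all mock libraries. Of all tested genes, 22.2%, 7.22%, 15.3% and 17.2% did so at 1, 3, 24 and 72 h. By the test of the difference, the effect on ZIP5 was smaller at 24 h than at 3 h, by -0.89 ± 0.22 on the log2 scale (adjusted p = 0.028), and the effect on IRT3 was smaller at 24 h than at 1 h, by -0.81 ± 0.25 (adjusted p = 0.0275).

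**Figure D3:**
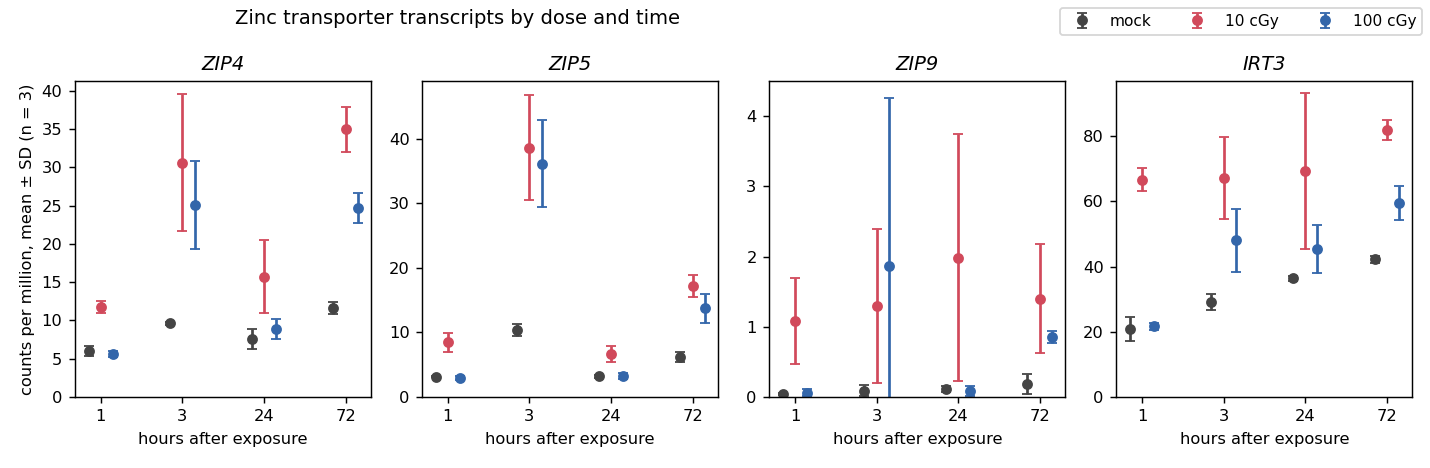
Mean CPM with SD (n = 3) of ZIP4, ZIP5, ZIP9 and IRT3 in mock (dark grey), 10 cGy (red) and 100 cGy (blue) libraries at 1, 3, 24 and 72 h, each panel with its own axis from 0, which hides error bars below it. At 24 h the 10 cGy means were 15.7, 6.66, 1.99 and 69.2 CPM, the mock means 7.53, 3.19, 0.108 and 36.3 CPM and the 100 cGy means 8.83, 3.27, 0.0809 and 45.3 CPM.

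The plants of the higher dose at 24 h share the mock libraries, so their values are only set beside those of 10 cGy. ZIP4 had 10.2, 7.62 and 8.64 CPM after 100 cGy and ZIP5 had 3.06, 3.83 and 2.94 CPM, with log2 changes from mock of 0.22 and 0.03, neither called. In the direct test of 100 cGy against 10 cGy, in which 213 genes (1.13% of those tested) were called, 27 higher and 186 lower at 100 cGy (123 and 30 after rescaling), ZIP5 was lower by -0.91 (adjusted p = 0.00747) and ZIP4 by -0.76 (adjusted p = 0.034). IRT3 (-0.56, adjusted p = 0.0851) and ZIP9 (-1.81, adjusted p = 0.0551) did not pass. ELIP1 had 47.6, 43.3 and 37.6 CPM after 100 cGy, a change from mock of -1.0 (adjusted p = 0.00419), and ELIP2 had 13.1, 12.2 and 12.5 CPM. Their direct differences between the doses were -0.18 ± 0.15 (adjusted p = 0.544) and 0.17 ± 0.25 (adjusted p = 0.742), which do not show that the doses act alike. Of the flavonol genes, F3H had 369 to 382 CPM, FLS1 164 to 186 CPM and UGT78D2 167 to 192 CPM after 100 cGy. All were below the lowest mock values of 475, 214 and 212 CPM, and 1 of the 18 flavonoid genes was called lower. Against mock, 100 cGy gave 113 called genes (0.599%), 38 higher and 75 lower (45 and 46 after rescaling). At other hours the higher dose was not level with mock in these zinc genes: mean ZIP4 was 25.0 CPM after 100 cGy and 9.59 CPM in mock at 3 h, and 24.7 and 11.6 CPM at 72 h, and mean ZIP5 was 36.2 and 10.4 CPM at 3 h and 13.7 and 6.17 CPM at 72 h. In each of these 4 cases the libraries did not overlap, while at 1 h the 100 cGy means were 5.60 and 2.93 CPM, beside 5.98 and 3.11 CPM in mock. No test was run on 100 cGy at these hours.

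Beyond these groups the largest rises were of mixed function. TPS8, a trehalose phosphate synthase homologue that is raised when sugar is short, had 6.34, 9.34 and 8.81 CPM in mock and 18.19, 15.8 and 24.9 CPM after 10 cGy. AT1G10150, annotated as a carbohydrate-binding protein, had 3.67, 3.7 and 6.23 CPM in mock and 11.7, 11.1 and 10.6 CPM after 10 cGy. Both were well apart from mock, with log2 changes of 1.21 ± 0.19 (adjusted p = 0.000836) and 1.24 ± 0.19 (adjusted p = 0.000579) that held without any 1 library, although a gene on the other strand overlaps AT1G10150. TPS8 was the only call among 17 senescence and sugar-starvation genes, whose median was 0.32.

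AT1G68600, of the aluminium-activated malate transporter family, rose from 21.1, 25.9 and 26.4 CPM to 49.6, 46.1 and 74.1 CPM, a log2 change of 1.17. RAV2, a repressor of flowering, rose from 5.18, 3.8 and 5.5 CPM to 11.1, 7.72 and 11 CPM, a change of 0.97. BBX27, of the B-box family, rose from 2.44, 3.9 and 3.41 CPM to 7.51, 4.36 and 8.46 CPM, a change of 0.93. In all 3 genes the groups were apart and the calls held without any 1 library. CML41, a calmodulin-like protein (1.19), and CRK5, a cysteine-rich receptor kinase (1.09), rose but lost their calls without some library. ATCTH, a CCCH zinc-finger gene, the F-box gene AT1G23390 (both 0.98) and AT5G19190 (0.90) kept theirs. The largest value belonged to the defensin-like gene AT3G59930 (2.55 ± 0.66, adjusted p = 0.0309), which shares near-identical stretches with AT5G33355 and had an adjusted p of 0.22 without 10 cGy replicate 3. The smallest adjusted p among the named genes was that of RTL1, an RNase III-like protein (0.73 ± 0.09, adjusted p = 0.000235), from 1.89, 2.82 and 2.95 CPM to 4.55, 4.13 and 4.83 CPM. The groups were apart, and a gene on the other strand overlaps it.

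Among the largest falls that are not light-stress genes were ABCI21, an ABC protein of subfamily I, and its relative ABCI20. ABCI21 had 90.2, 70.2 and 65.8 CPM in mock and 35.1, 58 and 38.3 CPM after 10 cGy, and ABCI20 had 142, 120 and 119 CPM and 73.2, 106 and 68 CPM. Neither overlapped with mock, and their log2 changes of -0.80 and -0.64 held without any 1 library. CGA1, a GATA factor of chloroplast development (-0.57), MYB13 (-0.68) and AIF1, an atypical helix-loop-helix protein (-0.57), also fell. Their calls were lost without some library. The remaining falls by the rule were CYP78A8 (-0.61), AT5G42760 (-0.54), AT5G11975 (-0.87), the noncoding AT4G06340 (-0.80) and AT3G23510 (-0.63), the last with a near-identical neighbour.

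Clock and growth genes moved singly. Of 22 clock genes tested, 2 rose and 1 fell, with a median of 0.03. GI, an evening gene that links the clock to flowering, had 96.8, 84.7 and 68.1 CPM in mock and 55.1, 64.3 and 55.3 CPM after 10 cGy, without overlap, a log2 change of -0.50 ± 0.09 (adjusted p = 0.00176) that held without any 1 library. PRR7, a morning repressor, rose by 0.26, and CDF2, a DOF factor upstream of flowering, by 0.57, and neither was called after rescaling. The morning oscillator gene CCA1 was at 604, 560 and 596 CPM in mock and 556, 590 and 573 CPM after 10 cGy, overlapping. Of 9 shade and auxin genes, 3 rose, beside 2.62% of all tested genes called higher. They were PIF4 (0.49 ± 0.11, adjusted p = 0.00831), PIL6 (0.26) and the auxin-induced IAA1 (0.40), of which PIF4 was called after rescaling. None of these 3 calls held without every single library, and without 10 cGy replicate 1 the list held 0 calls. PIF4, a growth-promoting factor held back by light, had 48.5, 45.3 and 51.2 CPM in mock and 80.9, 60.8 and 64.4 CPM after 10 cGy.

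Of 18 photosynthesis genes tested, 3 fell and 0 rose, beside 0.673% of all tested genes called lower, with a median of -0.10: the photoprotective PsbS gene NPQ4 (-0.20), the Rubisco small subunit RBCS1B (-0.32, with near-identical copies) and GAPB (-0.18), the last not after rescaling. All 3 calls were lost without 10 cGy replicate 3. Among 17 antioxidant genes 1 fell, the chloroplast superoxide dismutase CSD2 (-0.37 ± 0.10, adjusted p = 0.0383), from 358, 317 and 332 CPM to 238, 310 and 239 CPM. The antioxidant list held 0 calls without 10 cGy replicate 3, without mock replicate 1 or without mock replicate 3, and 0 with the replicate number as a block. Of 19 genes of ethylene synthesis and signalling, EBF2, an F-box protein that removes EIN3 (0.29), and EIL1, a relative of EIN3 (0.29), rose on CPM as deposited, and 0 were called after rescaling. A gene on the other strand overlaps EBF2, whose groups overlapped, and EIL1 shares near-identical stretches with EIN3. Of 17 ethylene response factors and defence targets, RAP2.12, an ethylene response factor of the low-oxygen response, rose (0.30), not after rescaling, with a near-identical copy elsewhere. CMT2, a DNA methyltransferase, was the only call of 21 DNA methylation and silencing genes (0.26), not after rescaling.

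A further set of lists held 0 calls: cold response, touch and wound, jasmonate, salicylate and immunity, abscisate, heat shock, S phase, G2 and mitosis, sulphur and phosphate, nitrate, glucosinolates, iron, expansins, type-A cytokinin response regulators and low oxygen. Their medians ran from -0.20 for iron status, where 14 of 15 values were negative, to 0.29 for glucosinolates, where 17 of 17 were positive. After rescaling 14 of 15 and 16 of 17 kept these signs, with medians of -0.28 and 0.21, beside 68.3% positive and 31.6% negative among all tested genes as deposited and 48.4% and 51.6% after rescaling. Of 12 heat shock genes 11 had negative values, both as deposited and after rescaling. The immune marker PR1 ranged from 0.462 to 5.48 CPM in mock and from 0.249 to 5.13 CPM after 10 cGy.

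**Figure D4:**
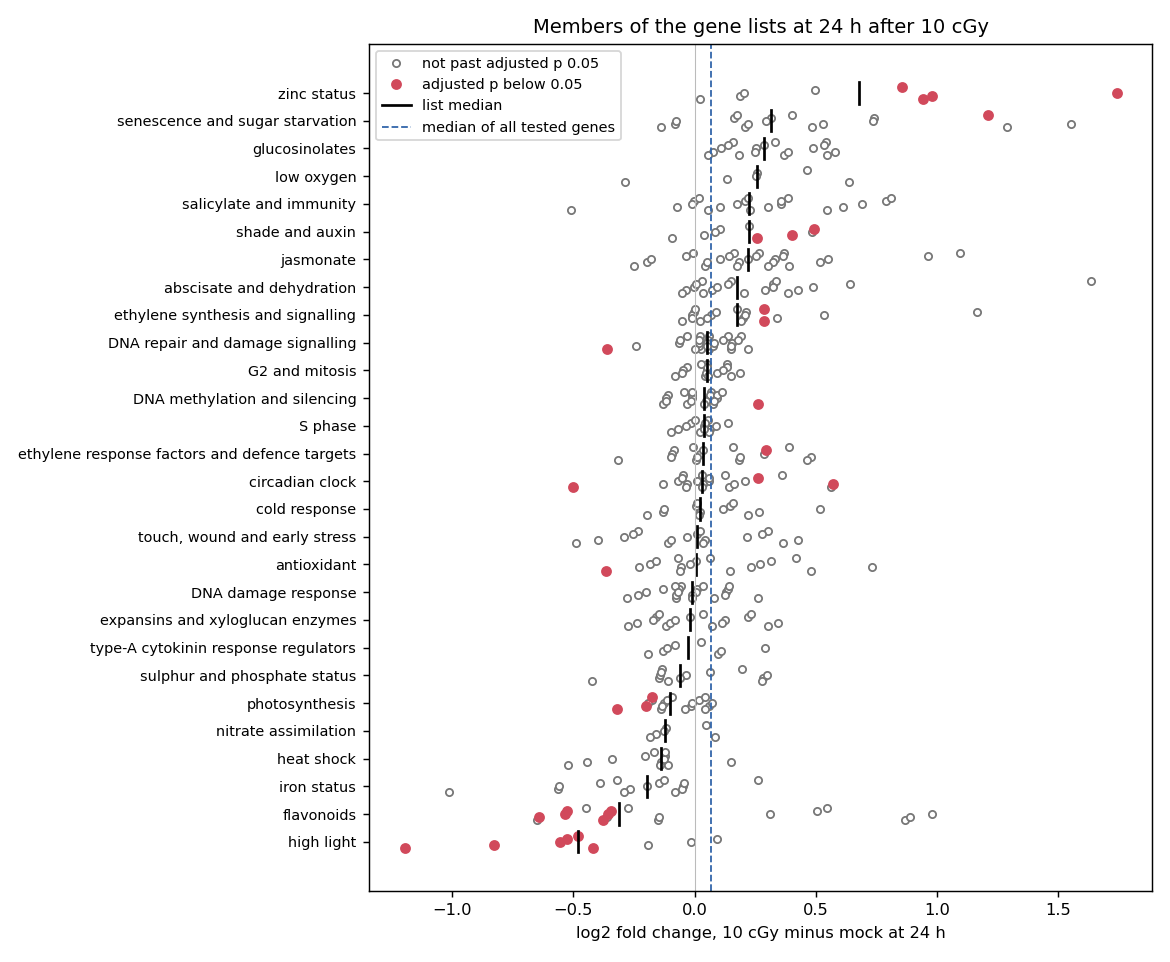
Log2 fold change of 10 cGy minus mock at 24 h for the tested members of 28 gene lists, with called members in red, other members as open circles, list medians as black bars and the median of all tested genes as a dashed line. The zinc list has the highest median (0.68) and the high light list the lowest (-0.48).

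The changes of 24 h were then followed in the other hours, whose libraries are separate. At 1 h 10 cGy gave 4782 called genes (25.3% of those tested), 2560 higher (13.6%) and 2222 lower (11.8%). Of the 494 genes that rose at 24 h, 193 (39.1%) had also risen at 1 h, which is 7.54% of the rises of that hour, and 55 had fallen. Of the 127 that fell, 44 (34.6%) had fallen at 1 h and 13 had risen. At 3 h, with 282 calls (1.49%), 8 of the rises (1.62%, and 5.48% of the rises of that hour, which were 0.774% of all genes) and 5 of the falls (3.94%, where 0.721% of all genes were lower) were called in the same direction. In the opposite direction 6 of the rises and 3 of the falls were called at 3 h. At 72 h, with 1771 calls (9.38%), 107 of the rises (21.7%) were called higher, which is 12.0% of the rises of that hour, and 41 of the falls (32.3%) lower, where 4.72% of all genes were higher and 4.66% lower, and 1 of the rises and 2 of the falls were called the opposite way. In sign alone, 69.0%, 44.3% and 86.2% of the rises were positive at 1, 3 and 72 h, beside 48.9%, 42.2% and 57.0% of all genes. Of the falls, 76.4%, 55.9% and 74.8% were negative, beside 51.1%, 57.8% and 42.9% of all genes, so that at 3 h the share among the falls was below that of all genes.

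The change of the 10 cGy effect between hours was tested directly. From 1 h to 24 h the effect differed in 2350 genes (12.5% of those tested), 1484 higher (7.86%) and 866 lower (4.59%) at 24 h. After rescaling the split was 921 and 1446. From 3 h to 24 h it differed in 510 genes (2.7%), 416 higher (2.2%) and 94 lower (0.498%), with 99 and 168 after rescaling. From 24 h to 72 h 0 genes (0%) passed in limma, with 1932 at an unadjusted p under 0.05 and a smallest adjusted p of 0.0974.

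Some light genes responded differently by hour. The effect on ELIP1 was 0.58 at 1 h (adjusted p = 0.0055), 0.21 at 3 h, -0.83 at 24 h and -0.65 at 72 h (adjusted p = 0.0082). The change from 1 h to 24 h was -1.41 ± 0.22 (adjusted p = 5.41e-05). RUP1 was higher at 1 h (0.49) and lower at 24 h (-0.53), a change of -1.02 ± 0.15 (adjusted p = 3.55e-05), and GI likewise (0.30 and -0.50), a change of -0.80 ± 0.12 (adjusted p = 5.62e-05). The mock level of ELIP1 itself went with the hour, at means of 53.3, 17.2, 86.1 and 29.4 CPM at 1, 3, 24 and 72 h. The clock hour of harvest is not given in the sources used here.

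F3H, FLS1 and UGT78D2 fell at 1 h and 24 h and were not called at 3 h, and UGT78D2 was called higher at 72 h (adjusted p = 0.041). F3H had log2 changes of -0.62, 0.40, -0.64 and 0.04 at 1, 3, 24 and 72 h, FLS1 of -0.26, 0.28, -0.54 and 0.02 and UGT78D2 of -0.38, 0.40, -0.53 and 0.36. The 3 h and 24 h effects differed by -1.04 ± 0.19 for F3H (adjusted p = 0.00543), -0.82 ± 0.13 for FLS1 (adjusted p = 0.00191) and -0.92 ± 0.16 for UGT78D2 (adjusted p = 0.00336). Of the 18 flavonoid genes, 9 had a lower effect at 24 h than at 3 h and 0 a higher one, beside 0.498% and 2.2% of all tested genes. Mock F3H was at means of 172, 87.2, 499 and 119 CPM at the 4 hours.

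**Figure D5:**
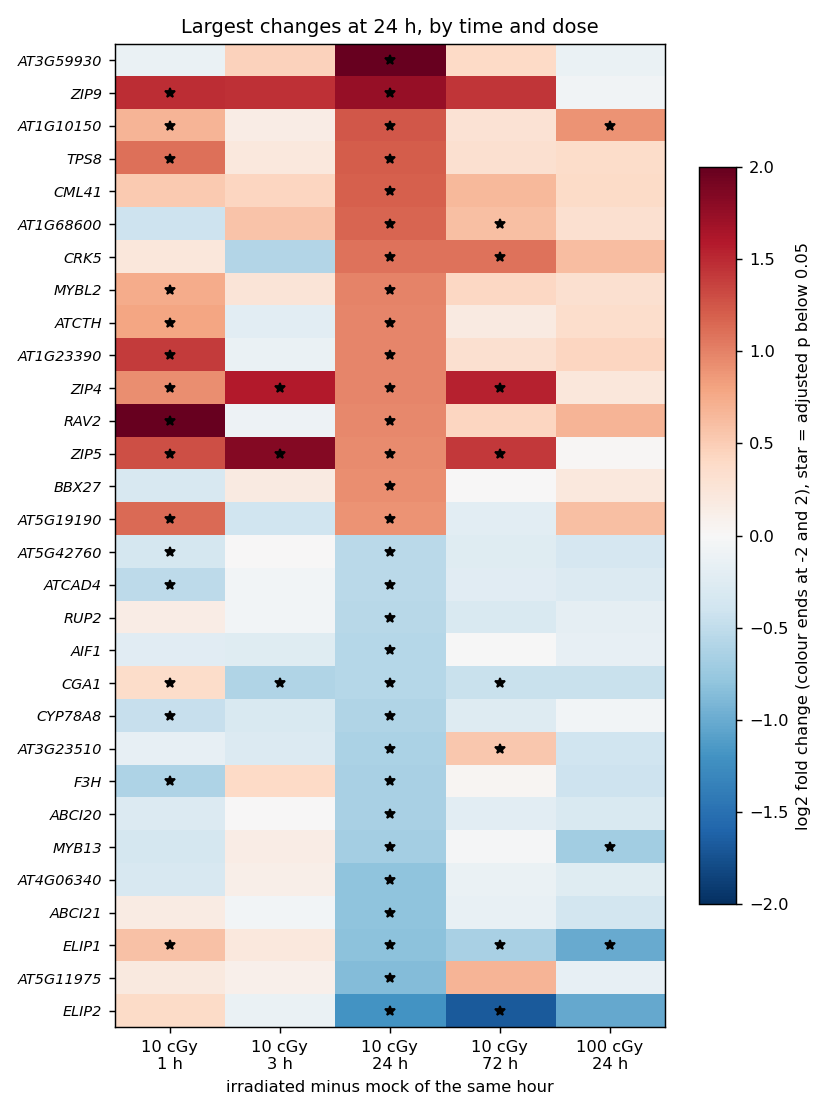
Log2 fold change of irradiated minus mock of the same hour (colour, ends at -2 and 2) for the 15 largest rises and 15 largest falls of 24 h, in rows, at 10 cGy after 1, 3, 24 and 72 h and at 100 cGy after 24 h, in columns, with a star for an adjusted p under 0.05. All 30 have a star at 24 h, where they were chosen, and ZIP4 and ZIP5 have one at each hour of 10 cGy but none at 100 cGy after 24 h.

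Of the 15 largest rises, 10 were also called higher at 1 h, 2 at 3 h and 4 at 72 h, and 0 were called lower. TPS8 was among those of 1 h (1.11) and differed from its effect at 3 h by 0.99 ± 0.26 (adjusted p = 0.0408). RAV2 rose far more at 1 h (2.36) than at 24 h, a change of -1.39 ± 0.24 (adjusted p = 0.000189). BBX27 was not called at 1 h (-0.32), and its effect at 24 h was higher by 1.25 ± 0.24 (adjusted p = 0.000583). Of the 15 largest falls, 4, 1 and 3 were also called lower at 1, 3 and 72 h, and 2 at 1 h (ELIP1 and CGA1) and 1 at 72 h (AT3G23510) were called higher. Among the genes with the smallest p for the change between 1 h and 24 h, FBH3, a helix-loop-helix factor of flowering, had -1.27 at 1 h and 0.15 at 24 h, and AT1G72416, a DnaJ-domain protein, had 4.48 and 0.13, neither called at 24 h. CIPK20, a calcium-regulated kinase, rose at 24 h (0.51 ± 0.07, adjusted p = 0.000416), from 40.3, 36.6 and 39 CPM to 59.5, 49.4 and 57.2 CPM, with changes of -0.10, -0.18 and 0.06 at the other hours, none called.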

How the data were processed

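Poly(A) RNA was measured in 36 libraries, 12 groups of 3. The submitters' processing notes name the build TAIR10 and the tools RSEM 1.2.28, STAR 2.5.2b and Trimmomatic 0.32, without roles or settings. The authors deposited CPM per gene, which sum to 1000000 per library, and a second table of the natural log of CPM + 1, which differed from the log of the first by at most 4.1e-09 and was not used further. Of the values above 0, 88.8% to 90.6% per library were whole multiples of the most frequent one (tolerance 0.02). That value was taken as 1 read, so depth could be read but count tests were not used. Floors cover counting error only.

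Values were taken as log2(CPM + 0.5), which understates changes of low genes, and a gene entered when 3 or more libraries reached 1 CPM (15102 were left out). limma 3.58.1 in R 4.3.3 fitted 1 mean per group over all 36 libraries with an intensity trend, and a gene was called when its Benjamini-Hochberg adjusted p, taken per contrast, was under 0.05. The procedure was also run on simulated data, with noise drawn independently for each gene and library. It held no shift of whole libraries, so it says nothing about how such shifts affect the calls. The contrasts were 10 cGy and 100 cGy against mock and against each other at 24 h, and the 10 cGy effect at 24 h against that at 1, 3 and 72 h. Tables and figures used python 3.11.15, pandas 2.3.3 and matplotlib 3.10.9.

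The comparison, the 31 gene lists (480 members, 445 tested) and the tests were chosen with earlier results of these data known. Genes named in the text were the 15 largest rises and falls among called genes without overlap, from each list at most 3 of its called members, by smallest p, a set of sentinel genes, and the 5 smallest adjusted p in each direction of each change between hours. Other members of the lists are named where a list is described, after their values were seen. Names, annotation and promoter windows came from RefSeq's TAIR10.1, which 18802 of the 18875 tested genes matched. The deposited tables hold no coordinates. Near-identical copies were searched in windows of 150 bases of each named gene. Alternatives changed the libraries in the fit, pseudocount, filter, variance trend, scaling and replicate block, or left out each library.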

Additional observations from a re-analysis of the deposited data

Results flagged for a closer look

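Each of the results below is a named gene whose 10 cGy effect at 24 h differed from that at an earlier hour by limma's test of the difference itself, with an adjusted p under 0.05. Of 49 called named genes considered, 15 such differences were found against 1 h, 22 against 3 h and 0 against 72 h. Of all tested genes 12.5%, 2.7% and 0% differed in the same contrasts. The 49 were all called at 24 h, from libraries that also enter each difference. Their counts therefore cannot test for an excess over those shares. Values are differences of log2 changes, 24 h minus the earlier hour, and no cause was tested.

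Against 1 h, the effect was more negative at 24 h for the light genes ELIP2 (-1.57 ± 0.36, adjusted p = 0.00347), ELIP1 (-1.41 ± 0.22, adjusted p = 5.41e-05), RUP1 (-1.02 ± 0.15) and RUP2 (-0.70 ± 0.15). It was also more negative for RAV2 (-1.39), AT5G11975 (-1.07), ABCI21 (-0.97), CGA1 (-0.94), IRT3 (-0.81) and GI (-0.80). It was more positive for AT1G68600 (1.58 ± 0.27, adjusted p = 0.00022), BBX27 (1.25 ± 0.24), the growth factor PIF4 (0.82 ± 0.15), CMT2 (0.42) and EIL1 (0.40).

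Against 3 h, it was more negative at 24 h for the flavonol genes F3H (-1.04 ± 0.19), UGT78D2 (-0.92 ± 0.16) and FLS1 (-0.82 ± 0.13). ELIP1 (-1.04), ZIP5 (-0.89), RUP1 (-0.84), MYB13 (-0.83), ABCI21 (-0.74), ABCI20 (-0.64), AT5G42760 (-0.55), GI (-0.51) and the lignin gene ATCAD4 (-0.48) followed. It was more positive for CRK5 (1.67 ± 0.35), AT5G19190 (1.30 ± 0.27), ATCTH (1.2 ± 0.26), AT1G23390 (1.12), AT1G10150 (1.09), RAV2 (1.07), TPS8 (0.99), PIF4 (0.54), PRR7 (0.40) and PIL6 (0.40). RAV2 was thus raised less at 24 h than at 1 h and more than at 3 h.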

How the results depend on the processing

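Called genes of 10 cGy against mock at 24 h numbered 0 with only the libraries of the 2 groups, 0 with only the 9 libraries of 24 h (2688 at an unadjusted p under 0.05) and 298 with array quality weights, the last 2 chosen after seeing the data, and 110 to 753 without 1 library, lowest without 10 cGy replicate 3. With the replicate number as a block within each time there were 465, 430 of them among the 621. Deviations from the group means correlated at 0.412, 0.115 and -0.0848 between same-numbered libraries and at -0.432 to 0.430 between the others. With 3 libraries a group these values cannot settle whether the numbers pair the samples. The other alternatives kept the count within 1.5 times. For the change from 3 h to 24 h the counts were 0 with only the libraries of the 4 groups, 299 with no filter, 267 after rescaling, 302 with the replicate block and 124 to 674 without 1 library. For the change from 1 h they were 1710 to 2267 without 1 library, and from 24 h to 72 h 1 after rescaling and 0 to 41 without 1 library. For 100 cGy against mock they were 2 with only the 2 groups, 54 with no filter, 51 with no trend, 51 with the block, 1 with the 9 libraries and 1 to 80 without 1 library, with a rescaled split of 45 higher and 46 lower. For 100 cGy against 10 cGy they were 0 with only the 2 groups, 128 with the block, 1 with the 9 libraries and 6 to 256 without 1 library, with a rescaled split of 123 higher and 30 lower. Of the 57 called named genes 0 reversed under any alternative, 21 kept their call without any 1 library and 47 after rescaling. Causes were not tested.

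Precision is limited by 3 libraries a group and, for genes such as ZIP9 and SMR7, by values near that of 3 reads.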

Other observations

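The gene groups here were drawn up after the called genes had been seen, so their counts describe these libraries and were given no test of their own. Of all tested genes 2.62% were called higher and 0.673% lower, and 68.3% had a positive value as deposited (48.4% after rescaling). Genes annotated as disease resistance proteins of a TIR or CC class are NBS-LRR and related immune receptors, which detect pathogen proteins inside the cell. They were higher after 10 cGy in 90 of 96 tested members, with 16 rises and 0 falls. Their median log2 change was 0.20, or 0.12 after rescaling, beside 0.07 and -0.01 over all genes. After rescaling 6 rose, and without 1 library 2 to 16 were called. The receptor AT2G14080 rose by 0.51 ± 0.08 (adjusted p = 0.000885 by limma). AT3G04210, annotated as TIR-NBS without the LRR part, rose by 0.75 ± 0.15 (adjusted p = 0.00647). The salicylate and immunity list held 0 calls among 20 tested genes, not far from the share of all genes. Its median was 0.22 (0.15 after rescaling), and 16 of the 20 values were positive. Of 4 members of the RAV family of AP2/B3 factors, which repress flowering and growth, RAV2 (0.97), RAV1 (0.85) and TEM1 (0.67) rose, the last not after rescaling or without 10 cGy replicate 3. Of 17 autophagy genes 3 rose and 0 fell, with 1 rise after rescaling and 0 to 4 calls without 1 library.

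Vitamin B6 synthesis fell in 3 of 4 genes. PDX2, the glutaminase of the pathway, had 35.9, 35.6 and 34.5 CPM in mock and 24.6, 30 and 23.6 CPM after 10 cGy, a log2 change of -0.44 ± 0.08 (adjusted p = 0.0016). AT5G01410 (PDX1.3, -0.34) and AT2G38230 (PDX1.1, -0.39, with a near-identical stretch elsewhere) fell as well. All 3 were also called after rescaling, and the call of PDX1.1 was lost without 10 cGy replicate 3. In the methionine and methyl cycle 4 of 9 genes fell: MS2 (-0.31), MAT3 (-0.29), SHM4 (-0.26) and HOG1 (-0.22). None of these calls held without every single library, with 0 to 4 called when 1 was left out and 0 without 10 cGy replicate 3. The chloroplast FtsH proteases FTSH1 (-0.33) and VAR1 (-0.38) fell too, and neither was called without 10 cGy replicate 3 or without mock replicate 1 (adjusted p up to 0.0903 and 0.114). Blue-light receptors split: CRY2 (0.40) and CRY1 (0.27) rose, CRY1 with overlapping groups and not after rescaling. Without 10 cGy replicate 3 both calls were lost (adjusted p = 0.0532 for CRY2 and 0.21 for CRY1), while CRY3, which repairs ultraviolet lesions in single-stranded DNA, fell by 0.42 (adjusted p = 0.00171) and kept its call without any 1 library.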
